A study of Mus musculus with 2 samples.

Results

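The genes of glycolysis and glycogen metabolism were examined in mouse embryonic stem cells (mESCs) given CHIR99021 (CHIR), an inhibitor of glycogen synthase kinase 3 (GSK3). The set was a list of 37 gene symbols that covers glucose and lactate transporters, the enzymes of glycolysis, the enzymes and kinases at the pyruvate branch, the enzymes that build and break down glycogen, and glucose-6-phosphate dehydrogenase. It was chosen by function, with earlier results of these data known. Of these symbols, 35 were identifiers in the array table, among 30774 identifiers in all, and Hk2 (hexokinase 2) and Ldhb (lactate dehydrogenase B) were not. The study grew mESCs of strain B6, which the labels trace to the inner cell mass at E3.5, in medium with serum and LIF, a cytokine that signals through Stat3. One group received LIF without CHIR and the other LIF together with CHIR99021, for 12 h. The array was run to look for targets common to Wnt/β-catenin and LIF-Stat3 signaling, with CHIR activating the former. The study's flow chart of the array comparison names the cells as 46C ESCs, and the concentration of CHIR for the arrays is not given in the sources used here.

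Each condition was measured on 1 Illumina beadchip, where beads that carry gene-specific probes report RNA as signal intensity and negative control beads set a detection p-value. Since each condition had 1 array, differences could not be tested or compared with the spread between cultures, and fold changes below describe these arrays. An identifier was called detected at a detection p-value under 0.01, which held for 9021 identifiers in LIF and 9174 with CHIR. The arrays had nearly equal distributions, with a 95th percentile of 3093 in LIF and 3077 with CHIR. Of 10 mESC markers, 8 were detected, among them Pou5f1 and Nanog, and 0 of 10 fibroblast markers were. Axin2, a feedback target of β-catenin signaling, had a signal of 314.1 in LIF and 1178 with CHIR. Any difference between the cultures other than CHIR cannot be told apart from the treatment.

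Glycolysis converts glucose to pyruvate, and lactate dehydrogenase turns pyruvate into lactate. Pluripotent stem cells are known for a high use of this pathway. Glycogen is the branched storage polymer of glucose. Glycogen synthase, which extends it, is the enzyme that gave GSK3 its name: GSK3 phosphorylates and inhibits it. That step acts on the protein, whereas the arrays report RNA.

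None of the detected genes of the set reached a 1.5-fold difference between the conditions. The set had 23 detected genes, 22 of them on both arrays, of which 0 were higher and 0 were lower by 1.5-fold or more with CHIR. Over all 9615 detected identifiers, 8.13% passed this limit in either direction (4.11% higher, 4.02% lower). This background ranged from 5.01% with detection required on both arrays to 11.7% with detection at 0.05. The share depends on brightness: it was 20.7% among identifiers whose brighter signal was under 100, 7.34% between 100 and 1000, and 2.20% from 1000 upward. Of the 23 genes, 16 were in the brightest range, where a count of 0 is close to this background. In that range 9 of the 16 were lower by any amount, beside 50.6% of all identifiers in it. The log2 fold changes (CHIR-treated over LIF alone) ran from -0.43 for Pgam2 to 0.46 for Pygb, with a median of -0.05, beside a median of 0.00 over all detected identifiers. Lower signals were seen for 13 genes and higher ones for 10, while 49.8% of all detected identifiers were lower.

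**Figure D1:**
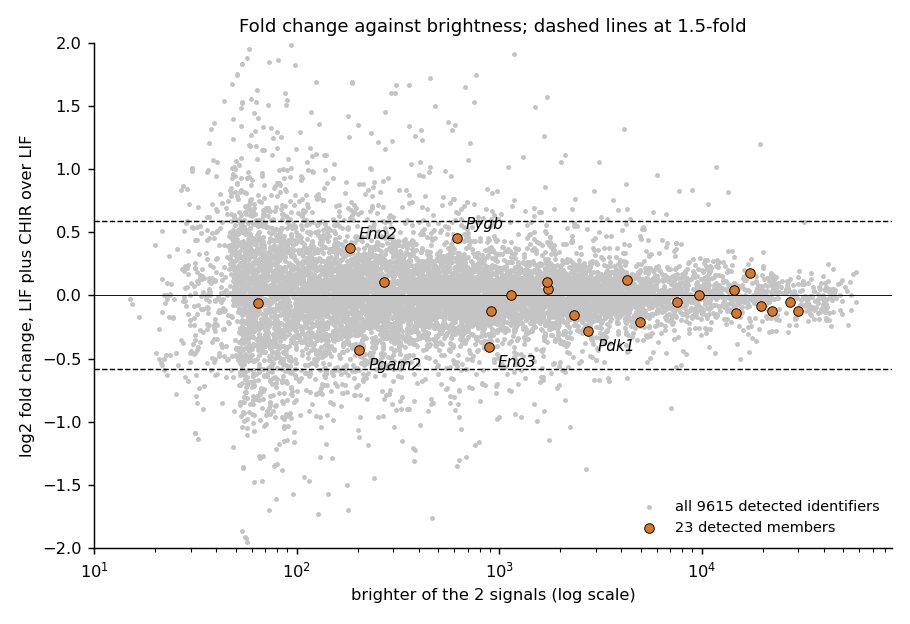
Log2 fold change of LIF plus CHIR over LIF (vertical axis) against the brighter of the 2 signals (horizontal axis, log scale). Grey points are the 9615 detected identifiers, of which 32 lie beyond the vertical axis, and orange points are the 23 detected genes of glycolysis and glycogen metabolism. All 23 lie between the dashed lines at 1.5-fold, and the 5 labelled genes are those at least 1.2-fold apart.

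The spread of all identifiers gives a scale for these values, although it holds both array error and any real change. For 95% of the 3269 identifiers in the brightest range, the log2 fold change lay between -0.42 and 0.42, and the 16 genes of the set there lay between -0.28 and 0.17. For 95% of the 4521 identifiers between 100 and 1000 it lay between -0.69 and 0.71, and the 6 genes of the set there lay between -0.43 and 0.46. The rank of a signal within its array, which multiplying an array by a factor leaves as it is, moved little. The largest move of a detected gene was 2.44 percentile points, for Pgam2, and 95% of all detected identifiers moved by at most 4.19 points. This scale pools dim and bright identifiers, and says less for bright genes, whose ranks move little. Pygb, 1.37-fold higher, changed by 2.304 points, while the brighter Txnip, outside the set and 1.37-fold lower, changed by -0.877.

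With the limit at 1.2-fold, Pygb and Eno2 passed as 2 higher genes, Pgam2, Eno3 and Pdk1 as 3 lower genes, and the other 18 lay within it. Over all detected identifiers, 27.9% passed 1.2-fold in either direction, with 14.0% higher and 13.9% lower. In the brightest range, where Pdk1 was the gene of the set that passed, this share was 12.0%.

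The promoter sequences of a few members are shown because glycolytic genes are classic targets of hypoxia-inducible factor. Its core motif can begin with A or G, and the form ACGTG alone was searched, so windows without it may hold GCGTG. Glycolytic genes are also targets of factors that bind the E-box CACGTG, whereas β-catenin acts through TCF/LEF factors, which bind CTTTGAT. The 250 bases before the annotated start were taken from RefSeq (build GRCm38.p6), which held 35 of the 37 genes. Slc2a3 had no entry, and the identifier Pgm2 carries no gene number and was not matched. Capitals mark ACGTG or its reverse CACGT, and where both meet they form the E-box. Ldha, Pgk1 and Slc2a1 hold ACGTG. Ldha has 2 annotated starts. The window shown holds 5 matches of ACGTG, counted on both strands, so that each of its 2 E-boxes counts as 2 matches. The window of the other start (chr7:46846832-46847081) holds 0. Pygb also holds ACGTG, and Pgam2 holds none of the motifs searched. They are the genes at the upper and lower end of the fold changes.
Ldha, chr7:46845554-46845803, plus strand: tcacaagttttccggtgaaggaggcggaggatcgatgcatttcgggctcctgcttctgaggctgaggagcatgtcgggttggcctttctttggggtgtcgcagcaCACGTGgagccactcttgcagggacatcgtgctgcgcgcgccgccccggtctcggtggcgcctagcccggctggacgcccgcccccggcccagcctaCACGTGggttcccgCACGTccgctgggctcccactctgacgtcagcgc
Pgk1, chrX:106186850-106187099, plus strand: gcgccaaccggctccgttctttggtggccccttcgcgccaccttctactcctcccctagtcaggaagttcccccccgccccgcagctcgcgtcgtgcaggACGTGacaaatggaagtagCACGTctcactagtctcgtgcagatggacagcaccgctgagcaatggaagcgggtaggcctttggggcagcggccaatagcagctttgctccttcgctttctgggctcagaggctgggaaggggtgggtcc
Slc2a1, chr4:119108495-119108744, plus strand: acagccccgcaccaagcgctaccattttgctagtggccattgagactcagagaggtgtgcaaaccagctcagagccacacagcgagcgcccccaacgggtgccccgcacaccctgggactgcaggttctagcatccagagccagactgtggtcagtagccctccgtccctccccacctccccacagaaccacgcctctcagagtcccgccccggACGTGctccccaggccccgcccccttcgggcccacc
Pygb, chr2:150786546-150786795, plus strand: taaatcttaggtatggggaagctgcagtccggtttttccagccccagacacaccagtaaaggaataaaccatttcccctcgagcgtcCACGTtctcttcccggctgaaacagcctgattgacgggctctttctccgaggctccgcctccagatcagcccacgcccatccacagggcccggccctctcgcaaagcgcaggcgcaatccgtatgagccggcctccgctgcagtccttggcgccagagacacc
Pgam2, chr11:5803797-5804046, minus strand: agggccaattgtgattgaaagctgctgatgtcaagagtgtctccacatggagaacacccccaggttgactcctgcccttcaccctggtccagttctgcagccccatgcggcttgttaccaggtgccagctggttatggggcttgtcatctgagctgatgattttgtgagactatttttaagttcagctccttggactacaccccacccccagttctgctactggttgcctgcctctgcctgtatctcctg
On both strands, ACGTG was present before at least 1 start site of 17 of the 35 genes (48.6%), against 18.5% of 27025 genes with a promoter in the table and 20.0% of the protein-coding ones. Counted by start site, it was in 20 of the 49 windows of the set and in 16.6% of all windows. These backgrounds were not matched for the share of G and C in the windows, and its part in the difference was not tested. CACGTG, which contains ACGTG, was before 4 of the 35 genes (Ldha, Pfkfb3, Pfkm and Slc16a1), against 6.86% of all genes. CTTTGAT or its reverse ATCAAAG was before 0 of the 35, against 3.72% of all genes, which says only that these letters are not in these windows. Among detected genes, the 9 with ACGTG had log2 fold changes from -0.14 to 0.46 and the 12 without it from -0.43 to 0.37. These ranges overlapped, and the arrays do not show which of these letters are bound.

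Glucose enters cells through the facilitative transporters Glut1, encoded by Slc2a1 (Entrez gene 20525, band 4qD2.1), and Glut3, encoded by Slc2a3 (20527, band 6qF2). Slc2a1 had a signal of 14839 in LIF and 13488 with CHIR, a log2 fold change of -0.14. Slc2a3 had 15331 in LIF and 17294 with CHIR, 1.13-fold higher. The pair thus differed in direction, each by less than 1.2-fold. The lactate exporters were not detected: Slc16a1 had signals of 4.38 and 0.00731, and Slc16a3 had 22.5 and 17.3, without and with CHIR. Signals this close to the negative controls give no fold change.

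The first steps of glycolysis phosphorylate glucose, convert it to fructose-6-phosphate and phosphorylate it again. Hexokinase 1 (Hk1) was not detected, with a signal of 11.3 in LIF and 17.5 with CHIR. Glucose phosphate isomerase (Gpi1) had 3935 and 4272. Phosphofructokinase, the main control point of the pathway, has liver, muscle and platelet subunits. The liver subunit Pfkl had 4937 in LIF and 4268 with CHIR, 1.16-fold lower. The muscle subunit Pfkm had 1677 and 1741. The platelet subunit Pfkp had 1135 and 1139, and was called detected in LIF only (detection p-values 0.0012 and 0.0968). The subunits therefore lay between a log2 fold change of -0.21 and 0.05. Pfkfb3, whose product makes the activator fructose-2,6-bisphosphate, was not detected (26.4 and 24.9).

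Aldolase splits the sugar, and triosephosphate isomerase interconverts the products. Aldoa had a signal of 14013 in LIF and 14472 with CHIR. Tpi1 had 7587 and 7326. Aldoc, the brain-type aldolase, had 263.5 and 309.9 but was not detected by its combined p-value. The detected Aldoa and Tpi1 were within 1.2-fold. Gapdh, the dehydrogenase of the next step and a common reference gene for expression assays, had 27378 in LIF and 26387 with CHIR (log2 fold change -0.05). The mouse genome holds many near-identical copies of Gapdh, and the table has a second bright identifier annotated as similar to it, LOC100042427, with 37154 and 37352. Which transcripts each probe reports cannot be told apart here. Pgk1, which makes the first ATP of the pathway, had 2255 in LIF and 2191 with CHIR, and Pgam1, the widely expressed phosphoglycerate mutase, had 2084 and 1940. Neither was called detected, with detection p-values of 0.0357 and 0.118 for Pgk1 and of 0.0660 and 0.136 for Pgam1.

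Muscle-type Pgam2 and Eno3 and neuronal Eno2 were 3 of the 5 genes beyond 1.2-fold. Pgam2, the muscle phosphoglycerate mutase (Entrez gene 56012, band 11qA1), had a signal of 203.8 in LIF and 150.7 with CHIR, 1.35-fold lower. Eno3, the muscle enolase (13808, band 11qB3), had 886.4 in LIF and 667.4 with CHIR, 1.33-fold lower. Eno2, the neuronal enolase (13807, band 6qF2), had 141.3 in LIF and 183.2 with CHIR, 1.30-fold higher. Eno1, the enolase of most cells, had 22140 and 20329, 1.09-fold lower. The signals of Pgam2, Eno2 and Eno3 were under 1000 on both arrays, and their fold changes lay inside the central 95% given above for that range. Pkm2, the identifier for pyruvate kinase of muscle type, had 19586 in LIF and 18458 with CHIR. The table does not say whether its probe separates the M1 and M2 splice forms. In all, 12 of the 17 glycolytic enzyme identifiers were detected, with 5 higher and 7 lower and a median log2 fold change of -0.05.

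**Figure D2:**
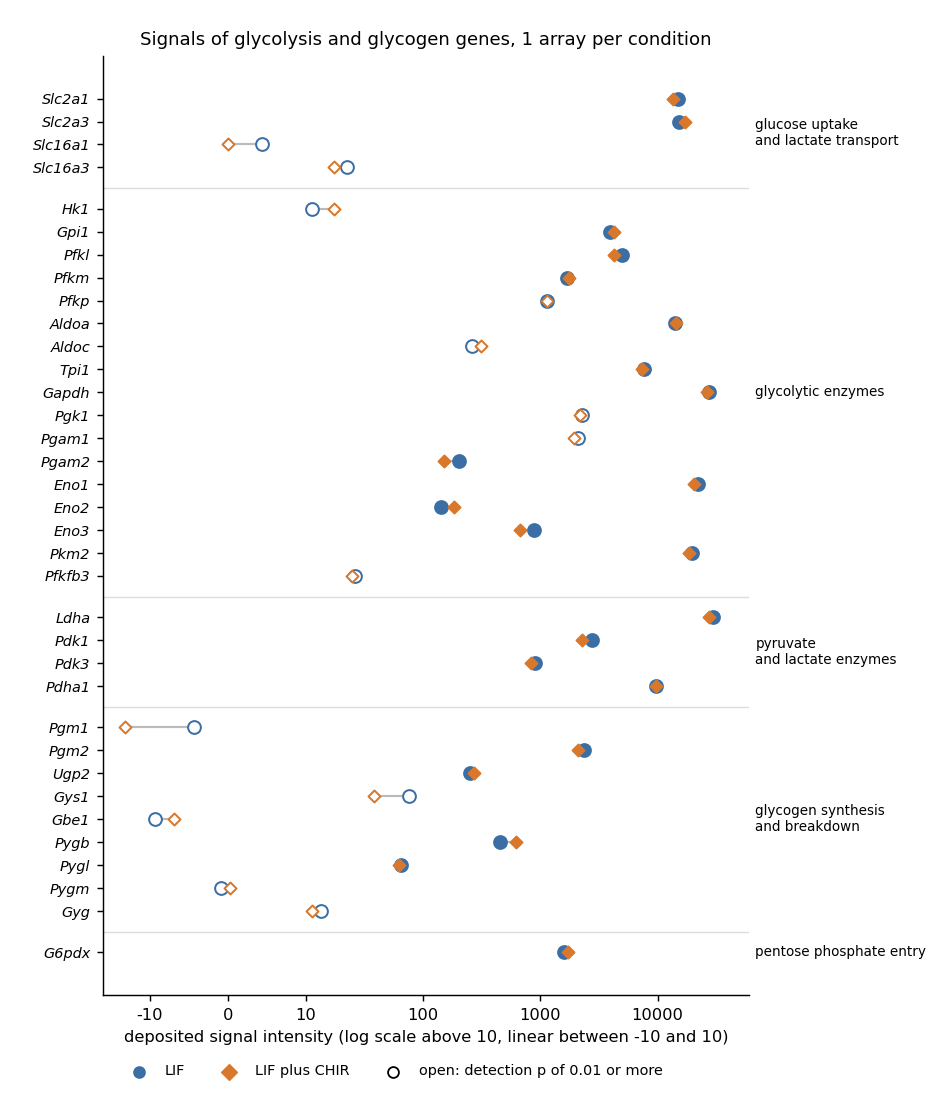
Deposited signal intensity (horizontal axis, log scale above 10, linear between -10 and 10) of the 35 genes of the set on the LIF array (blue circles) and the LIF plus CHIR array (orange diamonds), grouped by role, with open symbols where the detection p-value was 0.01 or more. The symbols of most bright genes overlap, and the widest gaps belong to genes such as Gys1 and Pgm1 that were detected on neither array.

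At the pyruvate branch, 4 of 4 identifiers were detected, 3 were lower and 1 was level, beside 49.8% lower of all detected identifiers. Pyruvate dehydrogenase kinases switch off pyruvate dehydrogenase and so limit the oxidation of pyruvate in the mitochondria. Pdk1 (Entrez gene 228026, band 2qC3) had a signal of 2753 in LIF and 2263 with CHIR, 1.22-fold lower (log2 fold change -0.28). Pdk3 had 907.5 and 835.2, 1.09-fold lower. Their target, the subunit Pdha1, had 9647 and 9668, a log2 fold change of 0.00. Ldha, which makes lactate, had 29745 in LIF and 27377 with CHIR, 1.09-fold lower. Among the detected genes of the set that were bright on the arrays, Pdk1 had the widest difference.

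Glycogen is built from glucose-6-phosphate by phosphoglucomutase, UDP-glucose pyrophosphorylase, glycogenin, glycogen synthase and the branching enzyme. Gys1, the muscle-type glycogen synthase (Entrez gene 14936, band 7qB4), was detected on neither array. It had 75.7 without CHIR, with a detection p-value of 0.0610, and 38.2 with CHIR, with a detection p-value of 0.267. The arrays therefore give no measured change for the gene of this GSK3 substrate. An alternative chosen after seeing the data let signal, in place of the detection p-value, decide which genes entered. Gys1 was then the single gene of the set past 1.5-fold, of 27, with a log2 fold change of -0.69 against the minimum signal of 47.1. Over all 10803 identifiers that entered, 5.42% passed this limit in either direction (275 higher, 311 lower). Gyg, the glycogenin that primes glycogen, had 13.5 and 11.2, and the branching enzyme Gbe1 had -9.35 and -6.82, and both were undetected. Ugp2, which makes UDP-glucose, was detected, with 252.1 in LIF and 270.7 with CHIR. The identifier Pgm2 had 2355 and 2112, 1.12-fold lower, and the identifier Pgm1 had -4.33 and -16.1 and was not detected. The mouse names Pgm1 and Pgm2 were exchanged after the array was designed: the Entrez gene number in the Pgm1 row (66681) is that of the gene now called Pgm2.

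Glycogen phosphorylases release glucose-1-phosphate from glycogen in brain, liver and muscle forms. Pygb, the brain form (Entrez gene 110078, band 2qG3), had a signal of 450.3 in LIF and 618.5 with CHIR, 1.37-fold higher (log2 fold change 0.46), the largest difference upward among the detected genes of the set. Pygl, the liver form, had 64.8 and 62.1. Pygm, the muscle form, was undetected with -0.804 and 0.243. Of the 9 genes of glycogen synthesis and breakdown on the table, 4 were detected, and Pygb was the one of these beyond 1.2-fold. G6pdx, which draws glucose-6-phosphate into the pentose phosphate pathway, had 1599 in LIF and 1722 with CHIR.

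Of the 12 undetected genes, 8 had signals under 30 on both arrays (Slc16a1, Slc16a3, Hk1, Pfkfb3, Pgm1, Gbe1, Pygm and Gyg). Another 3, Pgk1, Pgam1 and Aldoc, had signals over 100 on both arrays, and the last was Gys1. The p-values of these 4 identifiers point to several probes each, and the table gives 1 combined signal and p-value for them. Among the identifiers that appear to have 1 probe, 21 of 26 were detected, and among those with several, 2 of 9 were. With detection by signal, the set had 27 genes with a value and kept a median log2 fold change of -0.05.

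Other genes of these pathways were read from 7 lists with 99 genes, of which 95 were on the table and 32 detected. Of the 32, none (0) was higher by 1.5-fold with CHIR and 2 were lower by that much, Epas1 and Fbp2, with a median log2 fold change of -0.09 over the list. These counts are to be read against the 4.11% higher and 4.02% lower of all detected identifiers, and against the larger shares among dim ones (20.7% under a signal of 100, where Fbp2 lies, and 7.34% from 100 to 1000, where Epas1 lies). Epas1 encodes the hypoxia-inducible factor HIF2α, and it had 158.3 without and 96.2 with CHIR, 1.65-fold lower. Fbp2, the muscle fructose bisphosphatase of gluconeogenesis, was detected in LIF only, with 56.8 and 35.1, 1.62-fold lower by these signals. If 47.1, the lowest signal of a detected 1-probe identifier, is taken as the minimum, this difference was 1.21-fold. Hif1a itself was detected on neither array by its combined p-value (138.8 and 139.9). Txnip, a glucose-responsive gene whose product limits glucose uptake, had 6638 in LIF and 4842 with CHIR, 1.37-fold lower. Arnt, the partner of the hypoxia-inducible factors, had 445.4 and 406.2. Egln3, an oxygen-sensing prolyl hydroxylase, was detected in LIF only (61.4 and 42.8), as was the transporter gene Slc2a8 (92.0 and 64.5). Of the 6 detected regulators of glycolytic genes, 5 were lower and 1 (Mlxipl, 108.0 and 113.4) higher, beside 49.8% lower of all detected identifiers. Their median log2 fold change was -0.34. These genes differ in role, as the product of Txnip limits glucose uptake, so the count and median give no direction for glycolysis. All but Txnip, 5 of the 6, had signals under 1000, where the spread of all identifiers is wide. Txnip (log2 fold change -0.455) lay below the central 95% of the brightest range, whose lower end was -0.42. Epas1 (-0.72) lay below that of the range from 100 to 1000, whose lower end was -0.69. The other detected regulators lay inside the central 95% of their ranges.

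The remaining lists stayed within 1.5-fold. Of 7 detected genes of the pentose phosphate pathway, 6 were lower and 1 was higher, each by less than 1.2-fold, beside 49.8% lower of all detected identifiers. Taldo1 (transaldolase) had 13920 in LIF and 13469 with CHIR, Pgd (6-phosphogluconate dehydrogenase) had 10041 and 9154, and Tkt (transketolase) had 1292 and 1112. Of 7 other detected glycogen genes, 6 were higher and 1 was lower, again beside 49.8% lower of all, with a median log2 fold change of 0.14. Gsk3b and Ppp1r3f were among the 6 with log2 fold changes of just 0.01 and 0.03. The higher genes included Ppp1r3c (39.0 and 56.0) and the phosphorylase kinase subunit Phkg2 (373.9 and 435.8). Ppp1r3c, which targets protein phosphatase to glycogen, was detected in LIF plus CHIR only. With the lowest signal of a detected 1-probe identifier as the minimum, Ppp1r3c was 1.08-fold higher. Gsk3b, which encodes a target of CHIR itself, had 457.0 in LIF and 461.2 with CHIR. Among 4 detected genes of pyruvate dehydrogenase and its regulation, 2 were higher and 2 lower, with a median log2 fold change of -0.05. Pdhb had 1056 and 1144, Dlat had 320.4 and 345.8, and Pdk4 had 147.4 and 127.9. Pdp1, a phosphatase that reactivates pyruvate dehydrogenase, was detected in LIF only (52.3 and 42.6). In the list of other glycolytic enzymes and isoforms, 6 genes were detected, among them Adpgk (406.3 and 359.0) and Pfkfb4 (336.1 and 389.2). Pgam5 (4854 and 4975) was on that list by its name but is not an enzyme of glycolysis.

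**Figure D3:**
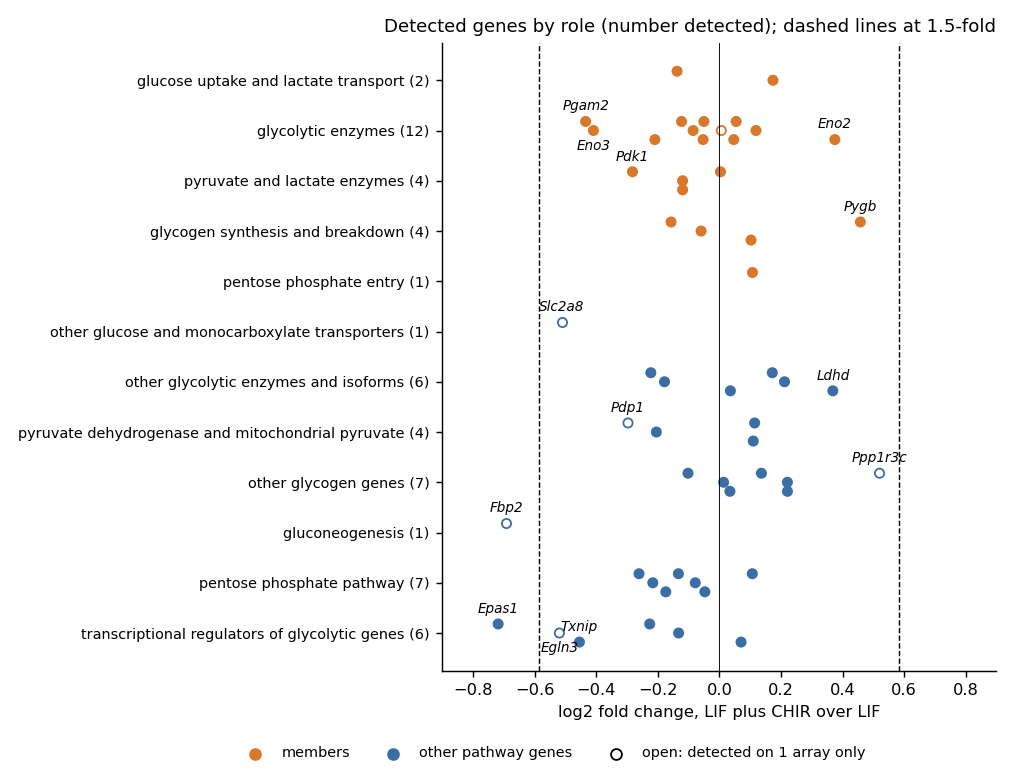
Log2 fold change of LIF plus CHIR over LIF (horizontal axis) for the detected genes of each list, with the number detected in brackets, for the set (orange) and the other genes of these pathways (blue), and open points for genes detected on 1 array only. Dashed lines mark 1.5-fold, and Epas1 and Fbp2 are the points beyond them.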

How the data were processed

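Total RNA of 2 samples, 1 per condition, was hybridized to Illumina mouse beadchips. Samples were assigned to conditions from their titles. The authors deposited, for each identifier and array, a signal intensity on a linear scale and its detection p-value. Values below 0 occur, and the arrays have nearly equal distributions. The normalization method and genome build are not given in the sources used here. Both deposited tables were read, and 0 of the 11702 shared identifiers differed in signal. Identifiers whose detection p-values fell on steps of 1 in 936, the inferred count of negative controls, were treated as having 1 probe, and the other 7419 as having several. Identifiers detected (p-value under 0.01) on either array were kept. The minimum signal was the lowest detected one of each array (15.1 in LIF, 14.8 in LIF plus CHIR), and dimmer values were set to it. Software was numpy 2.4.6, pandas 2.3.3 and matplotlib 3.10.9 under Python 3.11.15. The calculation was tested on simulated data. The simulation planted changes larger than 1.5-fold in identifiers that were not dim, so it does not test the limit itself or dim genes. The members and the lists were chosen with earlier results of these data known. Named were all members by role and, of the other pathway genes, those beyond 1.5-fold and up to 3 per list by brightest mean signal, taken here among detected genes. Hif1a, Egln3, Mlxipl, Pdp1, Ppp1r3c and Ppp1r3f fall outside this rule and were named after their values were seen, as were the examples from the marker and Wnt lists. Of the other 99 genes, 89 were matched by symbol and 6 by Entrez gene number. Alternatives were quantile normalization, scaling to equal medians, normexp correction (R 4.3.3, limma 3.58.1, offset 16), other detection rules, another minimum signal, the shorter table and a limit of 1.2-fold. The number of arrays limits the precision, and differences carry no p-value. Promoter sequences are from RefSeq, GRCm38.p6.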

Additional observations from a re-analysis of the deposited data

How the results depend on the processing

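No paired analysis was possible because there was a single array for each condition and the counts come from no test. The count of members at least 1.5-fold apart was 0 in each direction with detection at 0.05, which could have raised it. That rule added Pgk1, with a log2 fold change of -0.04. The count was also 0 with detection on both arrays, the higher minimum signal, normexp correction and the shorter table, which could not raise it. These drop genes, shrink folds (the higher minimum and the normexp offset) or hold the same values. It was 0 as well after quantile normalization and scaling to equal medians, which moved members by at most 0.0318 and 0.0015 (log2). Shifts this small could not carry the widest member value, 0.46 for Pygb, to the limit of 0.585. Over all identifiers, 395 were higher and 387 lower by 1.5-fold, against 270 and 258 with normexp correction, 203 and 227 with detection on both arrays, 247 and 273 with the higher minimum, and 682 and 684 with detection at 0.05. The median log2 fold change of the set lay between -0.06 and -0.05 under these alternatives, and the largest shift of a detected member was 0.0348 on the log2 scale, with normexp correction. A limit of 1.2-fold gave 2 members higher and 3 lower, and 2 other pathway genes higher and 6 lower. Detection by signal, added after seeing the data, gave 1 member lower of 27 (Gys1) and 1 other pathway gene lower of 39 (Epas1). Over all identifiers, 5.42% passed under that rule. Of the other pathway genes, 2 were at least 1.5-fold lower, and 1 (Epas1) under normexp correction, detection on both arrays and the higher minimum signal, which Fbp2 did not pass. Detection at 0.05 gave 2 higher (Egln1 and Pgm2l1) and 3 lower. Dim genes are limited most, since 20.7% of identifiers under a signal of 100 passed 1.5-fold.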
